A study of Mus musculus with 4 samples.

Results

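The genes described here are the Sox and T-box transcription factor genes, measured by RNA sequencing in mouse stomachs at embryonic day 15.5. They were chosen by symbol: Sox or Tbx followed by a number, and Eomes, Tbr1 and Mga. Sox2, Sox21, Sox10 and Tbx18 were not included. The choice took 31 of the 51098 genes in the count table, 16 SOX genes and 15 T-box genes, all annotated as protein coding.

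The study set stomachs of genotype Fgf9LacZ/LacZ (titled Mut, treatment label Fgf9KO, called Fgf9_null here) against stomachs of genotype Fgf9LacZ/+ (titled WT, treatment label control, called Fgf9_het here). Every sample thus carried at least 1 Fgf9LacZ allele, and no sample was free of it. Each group had 2 samples, numbered 2 and 3, and whether 1 embryo or a pool gave each sample is not stated. A stomach holds epithelium, mesenchyme, muscle, nerves and vessels, so that fewer cells of a type and less RNA per cell cannot be told apart.

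SOX proteins bind DNA through an HMG box, a domain that fits into the minor groove and bends the helix. T-box proteins share another DNA-binding fold, the T-box. Members of both families are known as regulators of cell identity in the embryo, and related members are often expressed together. In the gut, SOX9 is known from progenitor cells of the epithelium and from mesenchyme at the pylorus, SOX F factors from endothelium, and TBX2 and TBX3 as repressors in mesenchyme of several organs.

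The 4 columns were read here as 2 libraries, each present under both labels. Same-numbered columns of the 2 genotype labels carried nearly the same reads for these genes. At most 5.15 reads separated any of the 31 genes between the columns numbered 2, and at most 6.04 between those numbered 3. Counts were equal within 0.01 reads for 24 and 25 of the 31 genes. Between columns of different number, 16 of the 31 genes were 10 or more reads apart, and Sox11 differed by 517 reads between the Fgf9_null columns. A chi-square statistic per degree of freedom over the members, which is near 1 for separate draws of reads, was 0.0849 and 0.0763 between same-numbered columns and 2.76 to 3.18 between the others. Over all genes it was 4.46 and 4.64 between same-numbered columns, so the table as a whole differed by more than sampling noise there. The 7SL RNA gene Rn7s1, with 529306 against 255292 reads in the columns numbered 2 and 588969 against 291630 in those numbered 3 (Fgf9_null first), gave 95.9% and 95.7% of that statistic. Without it the statistic was 0.0942 and 0.112, and 4 of the remaining genes in the columns numbered 2 and 7 in those numbered 3 differed beyond 95% counting limits, against 21.6% of genes or more between columns of different number. The source of the Rn7s1 difference was not tested. Apart from these few genes, and for all members, same-numbered columns differed by less than sampling noise. They were counted as 1 sample and averaged, as library 2 and library 3. Which genotype either library had cannot be told from these columns. Column totals were 19269851 to 22713416 estimated counts, so that the detection floor of 3 counts lay at 0.132 to 0.156 CPM (CPM scales estimated counts to a common column total). Reads given as whole numbers are rounded estimated counts, and pairs of values are in the order library 2, library 3.

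At 1 CPM or more in both libraries stood 15 of the 31 genes (48.4%), beside 32.7% of all 51098 genes and 65.8% of the 21779 protein-coding genes in the table. The SOX family had 11 of 16 genes above this line and the T-box family 4 of 15. The SOX C, D, E and F subfamilies were above it with every member considered here, whereas SOX B1, B2, G and H, and the Tbx1, Tbr1 and T subfamilies had no considered member above it. Sox2, Sox21, Sox10 and Tbx18, which belong to SOX B1, B2 and E and to the Tbx1 subfamily, are outside these counts. Summed over the members, the level was 949 CPM in library 2 and 933 CPM in library 3. The SOX C genes alone made up 45.3% of that sum, and 47.3% of the sum of levels per kilobase of annotated exon, the scale on which genes of different length are compared here.

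**Figure D1:**
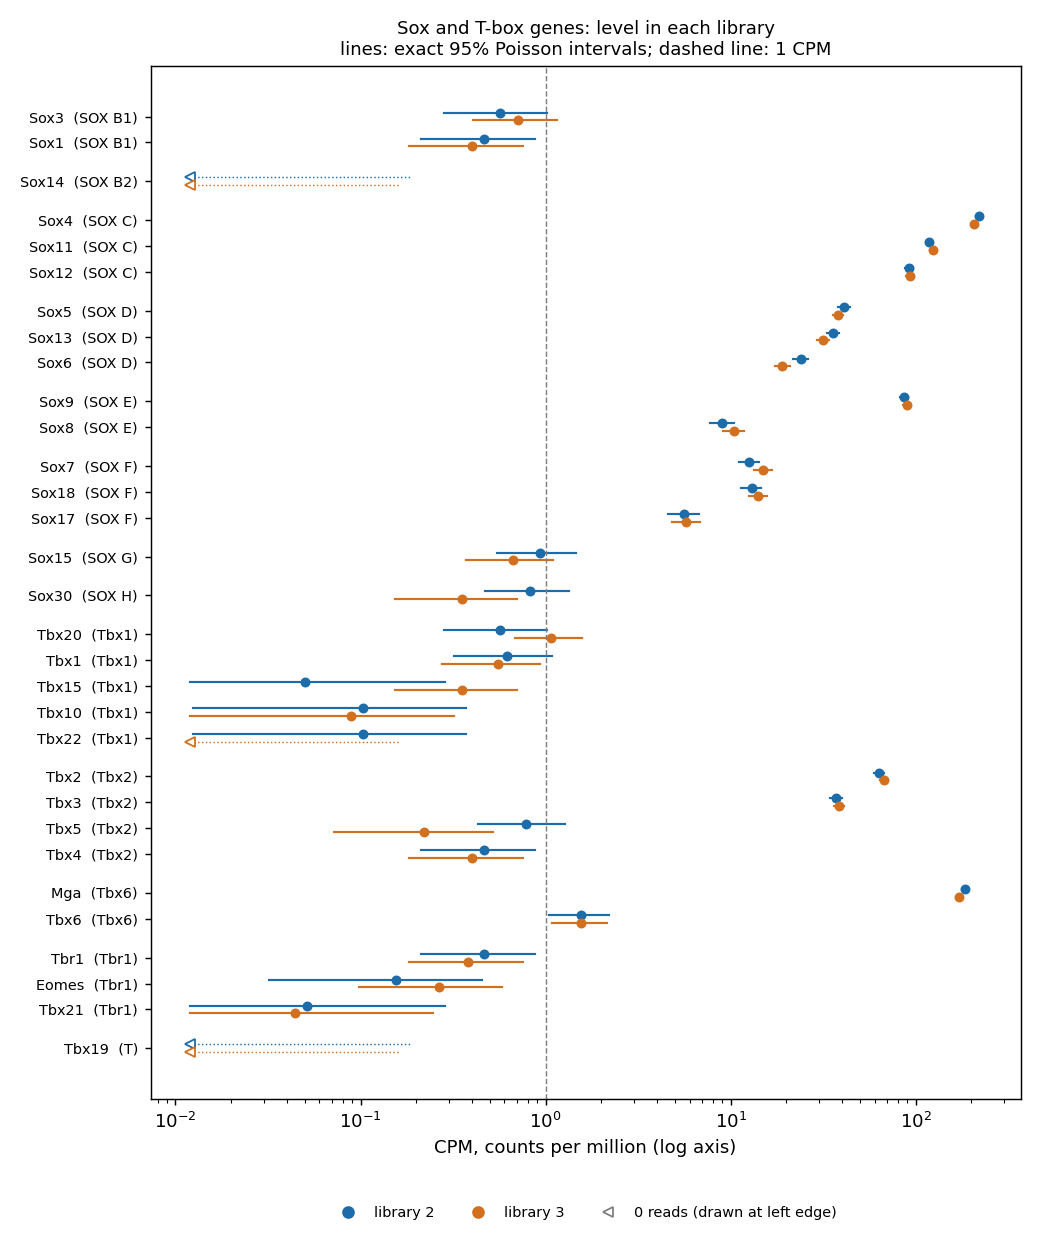
Level of the 31 Sox and T-box genes in library 2 (blue) and library 3 (orange), in CPM on a log axis, grouped by subfamily; lines are exact 95% Poisson intervals, clipped at the left edge, and open triangles mark 0 reads. The 15 genes right of the dashed line at 1 CPM in both libraries include all SOX C, D, E and F genes, with Sox4 highest at 219 and 207 CPM.

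SOX C genes, known from progenitor cells and young neurons and from embryonic mesenchyme, had the highest summed level per kilobase of any subfamily. Sox4 (ENSMUSG00000076431, GRCm38 chromosome 13, 28948919 to 28953713, minus strand) had 4247 and 4676 reads, or 219 and 207 CPM, with a mean of 213 ± 8.27 CPM (SD, n = 2 libraries). Sox11 (chromosome 12, 27334264 to 27342574, minus strand) had 118 and 125 CPM. Sox12 (chromosome 2, 152393611 to 152398063, minus strand), known as the weakest activator of the trio, had 92.1 and 92.8 CPM. Per kilobase of exon the order was Sox4 (45.7 and 43.2 CPM per kb), Sox12 (20.7 and 20.9) and Sox11 (14.2 and 15.0), and no pair of these genes overlapped between libraries. All 3 genes have a single exon.

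The SOX E gene Sox9 (chromosome 11, 112782224 to 112787760, plus strand) stood at 86.8 and 89.8 CPM. Its relative Sox8, known from neural crest and glia, had 9.03 and 10.4 CPM. Per kilobase, Sox9 (21.0 and 21.7 CPM per kb) lay above Sox8 (2.90 and 3.35) in each library. Of 7 markers of cartilage, a tissue in which Sox9 acts with Sox5 and Sox6, 3 reached 1 CPM in both libraries: Col11a2 (12.7 and 12.5 CPM), Hapln1 (6.41 and 6.86) and Col9a1 (2.27 and 3.15). Col2a1, which encodes the main cartilage collagen, had 1.08 and 0.798 CPM, and Acan 0.722 and 1.06 CPM. The 5 glandular epithelium markers summed to 1719.5 and 1752 CPM, and the 6 glia and neural crest markers to 183 and 180 CPM.

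The SOX D genes, whose proteins pair through a coiled coil and lack a known activation domain of their own, followed. Sox5 (chromosome 6, 143828425 to 144781977, minus strand) had 41.1 and 38.1 CPM. Sox13 had 35.7 and 31.8 CPM. Sox6 (chromosome 7, 115470872 to 116038796, minus strand) had 24.0 and 19.1 CPM. All 3 were higher in library 2. Per kilobase the order was Sox13 (8.29 and 7.37 CPM per kb), Sox5 (2.86 and 2.65) and Sox6 (1.62 and 1.28), without overlap. These levels depend on the length used: per kilobase of the longest transcript the means of Sox5 and Sox6 were 5.46 and 2.48 CPM per kb, against 2.75 and 1.45 over all annotated exons, and that of Sox13 was 9.14, so that the order was the same.

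SOX F genes are known for specifying arteries, veins and lymphatic vessels, and Sox17 also for endoderm. Sox18 had 13.0 and 14.0 CPM and Sox7 12.6 and 15.0 CPM. Sox17 (chromosome 1, 4490931 to 4497354, minus strand) had 5.60 and 5.76 CPM. Each of the 3 genes was higher in library 3, as were 10 of the 15 members at 1 CPM or more in both libraries. For the ratio of library 3 to library 2, the counting intervals of Sox18 (0.914 to 1.28) and Sox17 (0.789 to 1.335) included no difference. That of Sox7 (1.01 to 1.41) left it out. Per kilobase, Sox18 (8.02 and 8.67 CPM per kb) lay above Sox7 (3.81 and 4.55), and Sox17 (1.17 and 1.21) was lowest. The 8 blood endothelium markers summed to 356 and 406 CPM, with Cdh5 at 94.0 and 114 CPM and 7 of the 8 higher in library 3, while the 5 lymphatic markers summed to 86.4 and 74.5 CPM. The part of endothelial content in the SOX F values was not tested.

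The remaining SOX genes stayed below 1 CPM. Sox15 had 18 and 15 reads, Sox3 11 and 16, Sox30, known from testis, 16 and 8, and Sox1 9 and 9. Sox3 and Sox1 are genes of neural progenitors. Sox14, a gene of developing neurons, had 0 reads in every column, which allows up to 0.156 CPM by the 3-count floor of the shallowest column.

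Among T-box genes, Mga and the repressor genes Tbx2 and Tbx3 held nearly all of the family's CPM. Mga (chromosome 2, 119897228 to 119969581, plus strand) encodes a large protein with both a T-box and a basic helix-loop-helix domain that pairs with MAX in a Polycomb complex. It had 184 and 171 CPM. Tbx2 (chromosome 11, 85832551 to 85841948, plus strand) had 63.4 and 67.8 CPM. Tbx3 (chromosome 5, 119670669 to 119684724, plus strand) had 37.3 and 38.5 CPM. Tbx6, a gene of presomitic mesoderm, followed with 30 and 35 reads, or 1.55 CPM in both.

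Other T-box genes stayed below 1 CPM in at least 1 library. Tbx20, a heart gene, had 11 and 24 reads, and Tbx1, known from the pharynx, had 12 reads in each library. Tbx5 and Tbx4, genes of limb and lung mesenchyme, had 15 and 5 reads and 9 and 9 reads. Tbr1, of cortical neurons, had 9 and 9 reads, Eomes 3 and 6, Tbx15 1 and 8, Tbx10 2 and 2, Tbx22 2 and 0 and Tbx21 1 and 1. Tbx19, the factor of pituitary corticotropes, had 0 reads in every column. The 8 markers of T and natural killer cells, where Eomes and Tbx21 act, summed to 1.13 and 1.92 CPM with none at 1 CPM in both libraries. Markers of lung mesenchyme were not on the lists. Of the 3 lung epithelium markers, Sftpc and Scgb1a1 had 0 reads and Nkx2-1 had 3 and 1 reads. The 2 corticotrope markers summed to 0.670 and 0.665 CPM. The 5 heart muscle markers summed to 9.94 and 6.93 CPM, led by Tnnt2 at 6.86 and 4.30 CPM, and 2 of them reached 1 CPM in both libraries.

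Because a long transcript yields more reads, the order of the genes changed between CPM and CPM per kilobase of exon. Sox4 led on both scales, and per kilobase it stood above 96.0% of the genes that reached 1 CPM in both libraries. Mga has 15.3 kb of annotated exon, and it moved from the second place by CPM to the sixth per kilobase, at 12.0 and 11.2 CPM per kb. Sox9 and Sox12 took the second and the third place per kilobase, with means of 21.4 ± 0.508 and 20.8 ± 0.123 CPM per kb (SD, n = 2 libraries), and their 95% counting intervals overlapped. Tbx2 followed with 17.5 and 18.7 CPM per kb, then Sox11 and Mga. Sox18, with 1.62 kb of exon, went from place 12 by CPM to place 7. Tbx3 stood at 5.63 and 5.82 CPM per kb and Tbx6 at 0.857 and 0.860. Of the 15 genes, 9 lay above 4.79 CPM per kb, the median of all genes expressed at this threshold. Per kilobase, the SOX genes made up 78.0% of the summed level of the set, against 69.6% by CPM.

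**Figure D2:**
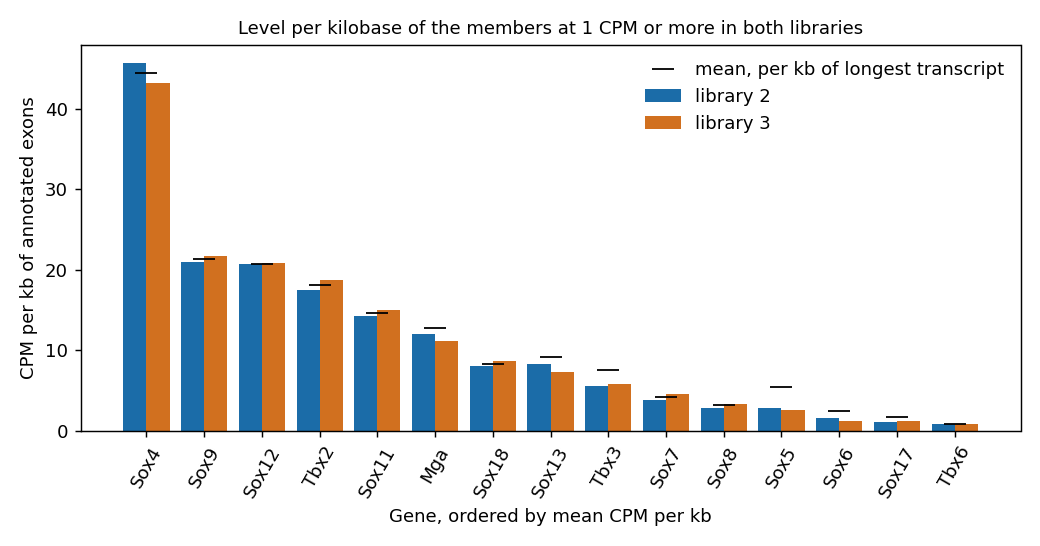
CPM per kilobase of annotated exon for the 15 genes past 1 CPM in each library, as bars from 0 for library 2 (blue) and library 3 (orange); black ticks give the mean per kilobase of the longest transcript. Sox4 stands apart at 45.7 and 43.2, and Sox9, Sox12, Tbx2 and Sox11 follow between 14.2 and 21.7.

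The T-box genes of the Tbx2 subfamily lie in 2 neighbouring pairs. In each pair the first gene was above 1 CPM in both libraries and the second below it in both. Tbx2 and Tbx4 are separated by 44.5 kb on chromosome 11. Tbx2 stood 128-fold above Tbx4 per kilobase in library 2 (95% counting interval 67.4 to 281) and 160-fold in library 3 (83.8 to 349). Tbx3 and Tbx5 are separated by 148 kb on chromosome 5. Tbx3 stood 33.7-fold above Tbx5 in library 2 (20.5 to 61.2) and 123-fold in library 3 (52.4 to 379). The intervals cover counting error only and rest on the 5 to 15 reads of Tbx4 and Tbx5.

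**Figure D3:**
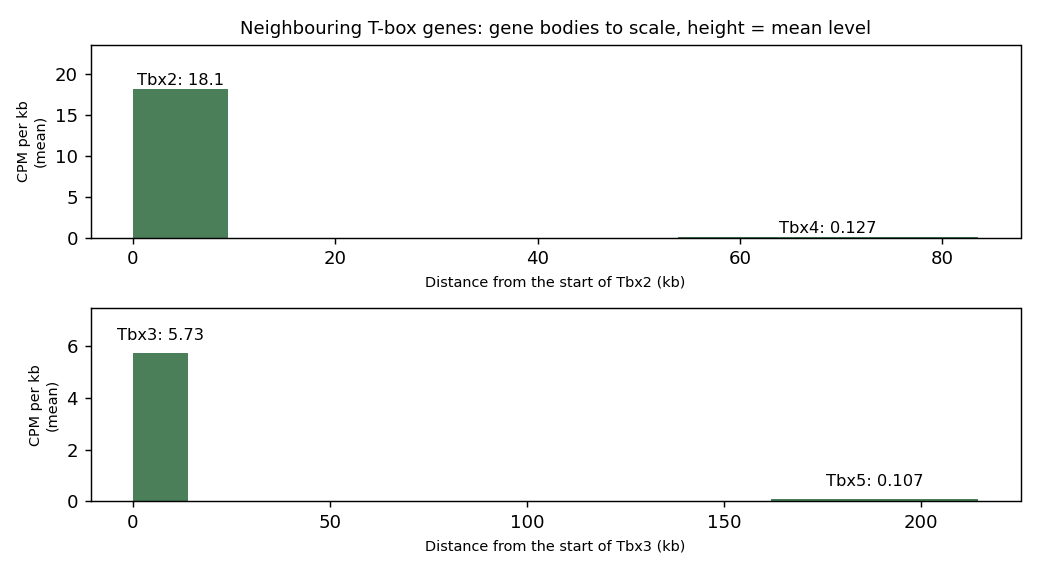
The Tbx2 and Tbx4 pair (top) and the Tbx3 and Tbx5 pair (bottom), with gene bodies to scale in kb from the start of the left gene and bar height giving the mean CPM per kb of exon from 0. The left gene is the higher in each pair, at 18.1 and 5.73, and the right gene nearly flat, at 0.127 and 0.107.

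To set a promoter beside a level, the 250 bases upstream of the RefSeq start site are shown for the most abundant gene (Sox4), its relative with the densest CpG (Sox12), a gene with 0 reads (Sox14) and one with 2 reads in each library (Tbx10). The sequences are from RefSeq, build GRCm38.p6, 5′ to 3′ on the strand of the gene, with every CpG dinucleotide in capitals. Their positions are chr13:28953700-28953949, chr2:152398047-152398296, chr9:99876171-99876420 and chr19:3992502-3992751.
Sox4: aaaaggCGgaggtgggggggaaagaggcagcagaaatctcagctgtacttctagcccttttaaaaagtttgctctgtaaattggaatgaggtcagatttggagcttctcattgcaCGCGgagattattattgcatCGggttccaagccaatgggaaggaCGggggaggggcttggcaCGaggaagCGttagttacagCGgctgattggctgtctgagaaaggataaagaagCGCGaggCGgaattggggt
Sox12: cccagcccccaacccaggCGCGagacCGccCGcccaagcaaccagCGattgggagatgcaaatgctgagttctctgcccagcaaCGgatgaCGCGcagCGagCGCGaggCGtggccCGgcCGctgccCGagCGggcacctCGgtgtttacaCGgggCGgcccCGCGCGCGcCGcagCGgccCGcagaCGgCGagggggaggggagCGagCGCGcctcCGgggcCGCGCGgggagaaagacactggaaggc
Sox14: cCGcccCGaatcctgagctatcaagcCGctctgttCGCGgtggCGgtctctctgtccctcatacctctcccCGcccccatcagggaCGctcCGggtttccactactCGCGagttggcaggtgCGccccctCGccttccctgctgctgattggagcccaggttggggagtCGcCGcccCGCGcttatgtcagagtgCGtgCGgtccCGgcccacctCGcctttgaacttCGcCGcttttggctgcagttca
Tbx10: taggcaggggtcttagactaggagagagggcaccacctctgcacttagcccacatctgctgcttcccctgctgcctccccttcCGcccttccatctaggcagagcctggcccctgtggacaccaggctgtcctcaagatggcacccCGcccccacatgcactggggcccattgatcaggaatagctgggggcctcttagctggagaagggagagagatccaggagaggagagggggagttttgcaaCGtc

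Sox4 held 11 CpG in this window, Sox12 held 35, Sox14 held 23 and Tbx10 held 3, beside a median of 6 over 32851 promoter windows of the same length. Sox14, without a read, was thus denser in CpG than Sox4, the most abundant gene, whereas Tbx19, also without a read, held 7. Windows were found for 22 of the 31 genes, 30 windows in all. Of the 15 genes past 1 CPM, 9 had a window, and their median was 17 CpG with each gene counted once, beside 8 for the 13 other genes with one. Counted by window, the medians were 9.5 over 14 windows, 6 of them of Sox6, and 7.5 over 16. The SOX core ACAAT, searched on both strands, occurred in 11 of the 30 member windows, and in 27.7% of all windows. Those 11 windows belonged to 8 of the 22 genes, as Sox6 and Tbx22 had it in more than 1 window. The T-box core TCACACC, searched on both strands, occurred in 1 member window, that of a start of Sox6, and in 3.33% of all windows. No window was printed for Sox17, Sox18, Sox3, Sox7, Sox9, Tbx15, Tbx2, Tbx3 and Tbx5.

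The series set Fgf9_null against Fgf9_het to ask what changes without Fgf9. For Sox4 the Fgf9_null columns held 4244.6 and 4673.2 reads, and 4249.8 and 4679.2 stood in the Fgf9_het columns. Sox9 had 1685 and 2027 reads with either label. Tbx1 had 12 and 12 reads against 12 and 13, the largest relative difference among the members tested, at a log2 fold of -0.058. edgeR's quasi-likelihood test called 0 of the 21 members tested at an adjusted p under 0.05, beside 0% of 19987 genes. It gave no member an unadjusted p under 0.05, against 4 of all genes, and DESeq2 called 0 members and 3 genes. The median log2 fold was 0.000294 over the members and 0.000298 over all genes. Blocking on the replicate number, edgeR called 1 member, beside 5.89% of all genes. That member was Tbx1, whose call rests on 1 read and was not made by edgeR's legacy method with the same block (0 members, 6 genes). For the members, whose same-numbered columns differ by less than sampling noise, this contrast sets a library against itself, and an effect of Fgf9 on them was not measured by it.

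Library 2 and library 3 were then described side by side, with 1 sample each and hence no test. Of the 15 genes past 1 CPM in each, 0 were more than 1.5-fold apart, beside 3.88% of the 16712 genes at that level. The median was 1.07-fold for the members and 1.08-fold for all these genes. Sox6 was farthest apart, 1.26-fold higher in library 2 (95% counting interval 1.10 to 1.44). Sox13 and Mga were 1.13-fold (1.01 to 1.25) and 1.07-fold (1.03 to 1.12) higher there, and Sox4 1.06-fold (1.01 to 1.10). Sox7 was 1.19-fold higher in library 3 (1.01 to 1.41). For the other 10 genes the interval included no difference. By the counting limits given above, 21.6% to 21.7% of all genes lay beyond 95% between columns of different number. The members' intervals rest on column totals without edgeR's TMM factors. Those factors were 1.00 and 1.02 in the columns numbered 2, and 0.984 and 0.996 in those numbered 3 (Fgf9_null first). Limits close to 1, such as those of Sox4 and Sox13, depend on this scaling.

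**Figure D4:**
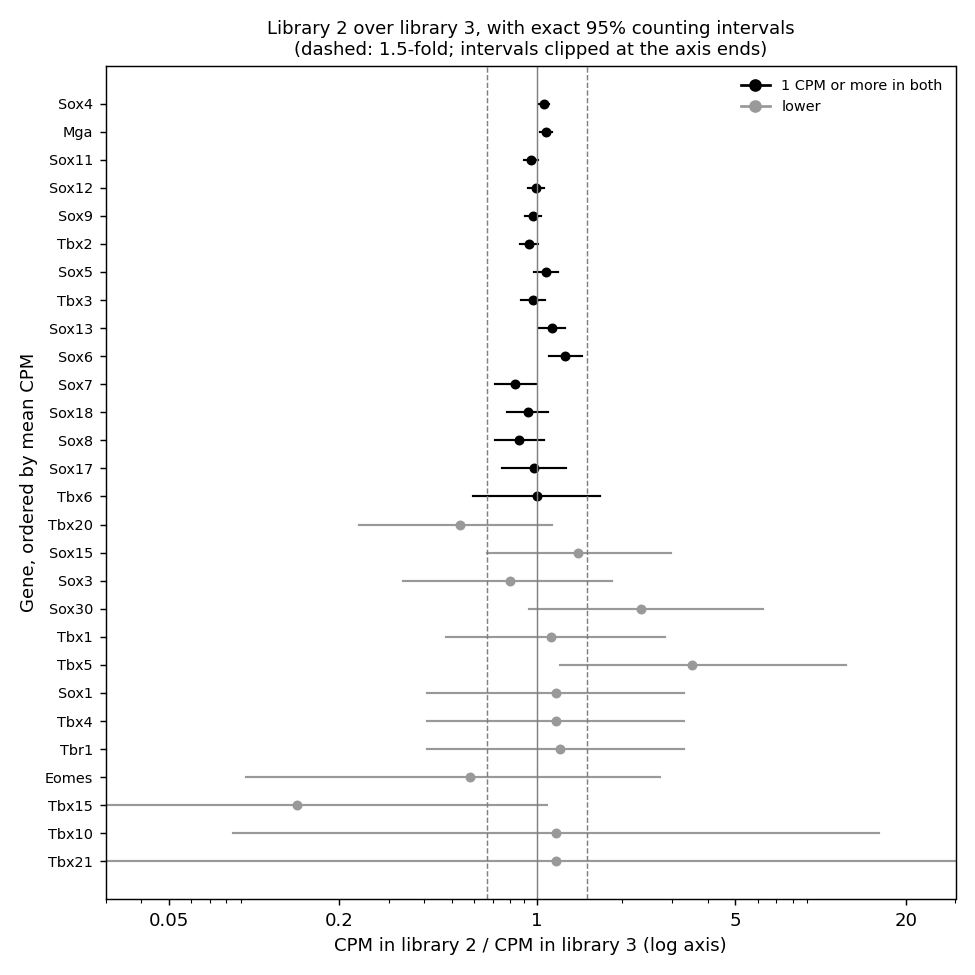
CPM in library 2 over CPM in library 3 on a log axis for the 28 members with reads in both libraries, ordered by mean CPM, with exact 95% counting intervals. The 15 genes at 1 CPM or more (black) lie within the dashed 1.5-fold lines, while genes with few reads (grey) have intervals that cross 1 or both of them, and Tbx5 lies to the right at 3.53.

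Below 1 CPM, intervals were wide. Tbx5 was 3.53-fold higher in library 2 (1.21 to 12.3), on 15 and 5 reads, and it was the only one of these genes whose interval left out 1. Sox30 stood 2.33-fold higher in library 2 (0.939 to 6.28), and Tbx20 1.88-fold higher in library 3 (0.885 to 4.24). Tbx15 was 7.05-fold higher in library 3 on 8 reads against 1 (0.922 to 305). Tbx22 had 2 reads against 0, both under the floor, and gets no fold.

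Other genes set the scale for these small shifts. The 5 forestomach squamous markers summed to 511 and 281 CPM, and 4 of them were more than 1.5-fold apart, with Krt13 at 145 and 74.2 CPM. Of the 5 skeletal muscle markers, the 3 that reached 1 CPM in both libraries were also lower in library 3, with Acta1 at 5.15 and 2.35 CPM. Myod1 had 2 and 0 reads, and Myog 0 and 2. The 5 smooth muscle markers had sums of 5494 and 5705 CPM, and the 5 stomach mesenchyme markers 5664 and 5558 CPM. Most of the mesenchyme sum was Col1a1, at 5358 and 5210 CPM, and the other 4 mesenchyme markers were higher in library 3. Sox6 and Sox13 were higher in the same library as the squamous markers and those 3 skeletal muscle markers. Sox7 was higher in the same library as 7 of the 8 blood endothelium markers. The part of these cell types in the values was not tested.

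**Figure D5:**
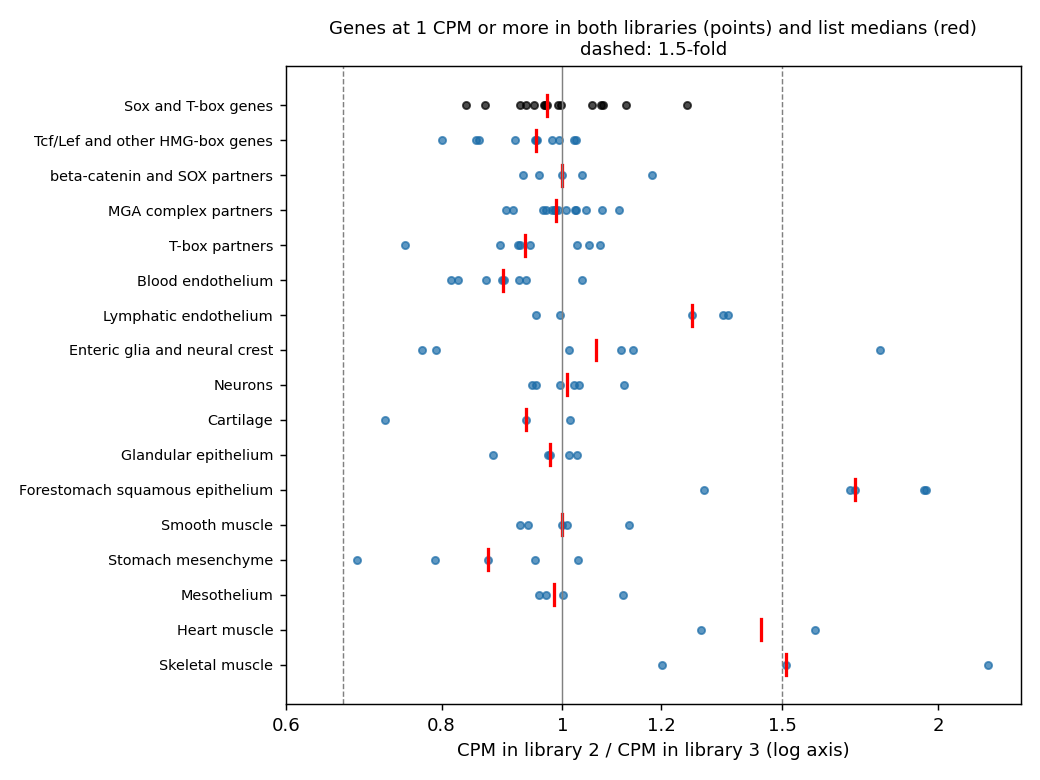
CPM in library 2 over CPM in library 3 on a log axis for genes past 1 CPM in each library, by list; red marks are list medians and dashed lines 1.5-fold. The Sox and T-box genes (black) stay between 0.837 and 1.26, while 4 of the 5 squamous genes lie beyond 1.5.

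Partners and relatives of the 2 families were counted at the same line of 1 CPM in both libraries. Of all protein-coding genes in the table, 65.8% reached it. All 11 Tcf/Lef and other HMG-box genes reached 1 CPM in both libraries, with 0 more than 1.5-fold apart. The repressor gene Cic led them at 336 and 342 CPM, and the Wnt effector gene Tcf7l2 had 91.3 and 91.9 CPM, whereas those farthest apart were Lef1, at 1.43 and 1.78 CPM, and Tox2, at 4.54 and 5.32 CPM. Of 8 partners of SOX proteins, 5 reached 1 CPM, whereas Pou5f1, Pou3f1 and Pou3f2 did not (means of 0.863, 0.571 and 0.240 CPM). The gene of beta-catenin, Ctnnb1, had 681 and 732 CPM, Tead2 145 and 151 CPM, and Rbpj, the Notch effector, 100.3 and 85.0 CPM. All 14 genes of MGA complex partners were above the line. Max, the dimer partner of Mga, had 31.6 and 32.6 CPM, or 8.93 CPM per kb on average, beside 11.6 for Mga. Among them Tfdp1 and Cbx3 had the highest CPM, at 101 ± 0.626 and 97.9 ± 2.45 CPM (SD, n = 2 libraries). Rnf2 and Ring1, genes of Polycomb ubiquitin ligases, were farthest apart, at 42.5 and 47.1 CPM and at 19.7 and 17.7 CPM. Of 10 T-box partners and targets, 8 reached 1 CPM. The co-repressor gene Tle3 had 213 and 226 CPM and the zinc finger gene Gata4 117 and 112 CPM. Hand2 (72.6 and 81.5 CPM) and Nkx2-5 (1.39 and 1.86 CPM) were farthest apart among those 8. Below the line, Hand1 had 3 and 9 reads, and Nppa, a heart target of Tbx5 and Tbx20, had 3 and 4 reads.

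Annotated exons of 8 members overlap those of another gene, and the strand setting of the counting is not given in the sources used here. For Sox4, 54.6% of the exon overlaps the long non-coding RNA gene Gm26735 on the other strand. For Sox17 and Sox8 the share was 16.9% and 10.6%, and the partner of Sox8, 2810468N07Rik, stood at 2.01 CPM. Sox15, at 0.796 CPM, shares 3.6% of its exon with Mpdu1, which stood at 23.7 CPM. Without the strand, reads of such partners cannot be told apart.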

How the data were processed

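Ribosomal RNA was removed from stomach total RNA with RNase H, and libraries were primed with random hexamers and sequenced in pairs, per the labels' protocols. Per the submitters' processing notes, the tools were edgeR, Salmon 1.8.0, Trimmomatic 0.33 and FastQC 0.10, and the builds mm10 and GRCm38; no role, transcript index or strand setting was given. The table the authors deposited holds estimated counts per gene, not scaled to depth. Groups follow the genotype field, and columns were matched by sample title. The table has 2 more columns of values without a name, which were not used.

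CPM was computed per column and averaged over same-numbered columns. Deviations from the group means correlated at 0.999 between columns of the same number, over 16712 genes, so the numbers pair columns of 1 library. All 31 members were found in GENCODE M21 (GRCm38), whose merged exons gave positions and lengths.

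Rounded counts were fitted with edgeR 4.0.16 in R 4.3.3 (TMM, filterByExpr, quasi-likelihood without the legacy method, a setting chosen with the calls of both methods known, Benjamini-Hochberg adjustment, threshold 0.05), and DESeq2 1.42.0 was an alternative. The edgeR fit without a block and the DESeq2 fit were tried on simulated counts drawn independently for each column. Those counts lack the near-equal columns found here, so the trial does not speak to this design or to the block. Whether samples came from separate embryos is not stated, so p-values measure only the spread between columns. Intervals (95%: Poisson for reads, Clopper-Pearson for ratios) and floors cover errors of counting alone.

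Every member was to be named, with values per library at 1 CPM or more. In companion lists the rule named the 2 most abundant and the 2 farthest apart genes; list genes beyond these were picked with their values in view. Members and lists were chosen with earlier results of these data known. Lcorl, put in the HMG-box list in error, was left out of it.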

Additional observations from a re-analysis of the deposited data

How the results depend on the processing

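The count of called genes was 0 with RLE factors and without a low-count filter, 3 with DESeq2, 1178 with the replicate number as a block and 1 to 2 with 1 column left out, where the lone column is assumed to vary like the other group. The count of called members was 0 in each of these except the block, where it was 1 (Tbx1). With edgeR's legacy quasi-likelihood method, an alternative chosen after seeing the data, 0 genes were called without a block and 6 with the replicate block, and no member was called. Of 210 member folds recomputed under all these settings, 209 stayed on the same side of 0.05, and 42 changed sign around 0. With 1 column left out, the columns hold the libraries in unequal numbers, and member log2 folds spanned -1.08 to 1.08. The count of 15 genes at 1 CPM or more was 19 at 0.5 CPM, 14 at 2 CPM and 16 in library 3 alone, a setting chosen after seeing the data, and 15 under the other settings. The count of 0 genes over 1.5-fold apart stayed at 0 with TMM-scaled library sizes, with the columns of either label alone, without structured RNAs and at 2-fold. Levels were 1.21 times as high for all 15 genes without 9 structured RNA genes in the library size. Per kilobase of the longest transcript, 7 of 15 levels moved by more than 1 SD, by up to 1.98 times, for Sox5, and the first 6 places kept their order. Depth limits the genes near 3 counts, and 2 libraries limit every comparison.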
